A study of Mus musculus with 8 samples.

Results

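The replication-dependent histone genes encode the core histones H2A, H2B, H3 and H4 and the linker histone H1 that package newly made DNA. They were taken as the protein-coding genes of the GENCODE M1 annotation of the mouse build mm9 whose symbol begins with Hist1h, Hist2h, Hist3h or Hist4h. The rule found 67 genes of 22232 protein-coding genes, namely 6 of H1, 19 of H2A, 18 of H2B, 11 of H3 and 13 of H4. It goes by symbol alone, and where or when each member is expressed was not examined. Of these, 55 belonged to the Hist1 genes on chromosome 13, 9 to Hist2 on chromosome 3, 2 to Hist3 on chromosome 11 and 1 to Hist4 on chromosome 6. Each gene was given its best-scored binding site within 1 kb of an annotated start in each of 8 site lists.

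Replication-dependent histone genes are transcribed mainly in S phase, and their mRNAs end in a stem-loop in place of a poly(A) tail. Cyclin E and Cdk2 act on the coactivator Npat to switch them on, and promoter elements particular to each histone type recruit Hinfp to H4 genes and the octamer factor Pou2f1 to H2B genes. E2F factors, which the Rb protein restrains, drive many genes of the G1/S transition. In intestine, the crypt holds the dividing cells and the villus the differentiated ones.

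The lists came from ChIP-exo-seq, in which an exonuclease trims immunoprecipitated DNA up to the crosslinked protein. Intestinal crypt cells and villus cells of mice with a mixed background of C57BL/6, 129 and FVB/N were used, labelled as wild type (called control here) or Rb KO (called Rb-deficient). Ah-cre, an inducible Cre active in the intestine, was the means of deletion, and the labels do not say whether control mice carried or induced it. Age is not given in the labels, nor is the number of mice behind a library. Chromatin was precipitated with Santa Cruz antibodies against E2f3 (sc-878 X) or Myc (sc-764 X), with 1 library for each of the 8 combinations of cell type, genotype and antibody. No difference between libraries therefore has a replicate check. The site lists do not report Rb1 itself, which leaves the genotype labels unchecked. A site present in fewer cells cannot be told apart from one occupied less in each cell. Sets of values for an antibody are given below in a constant order, namely crypt of control mice, crypt of Rb-deficient mice, villus of control mice and villus of Rb-deficient mice. In that order the E2f3 lists had lengths of 32666, 27396, 7405 and 14843 sites, and the Myc lists of 159181, 31397, 7223 and 4119 sites. The sequencing depth behind these lists is unknown. Each site carries a score deposited by the authors, between 2 and a cap of 999, whose meaning and scaling between libraries are not stated. It was used to rank sites within a list, and no difference in score between libraries was interpreted.

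The sequences at the E2f3 sites of the genes described below are shown first, grouped by histone type. All are from mm9, read 5′ to 3′ on the strand of the gene, 29 bases centred on the best site. The position is that of Rb-deficient crypt, or of control crypt for Hist2h4, Hist1h3g and Hist1h2bn and of Rb-deficient villus for Hist1h2an. Capitals mark the E2F motif, which was searched as TTCCCGC or TTCGCGC or TTGCCGC or TTGGCGC on both strands. The 5 H2A genes with an E2f3 site, core histones that pair with H2B, all had the same form of the motif, preceded by further T bases.
Hist1h2ah (chr13:22127500-22127528, minus strand): acgggcctcctttTTCGCGCcctggcttg
Hist1h2ag (chr13:22134862-22134890, minus strand): gaacgttccttTTCGCGCccagagaaaac
Hist1h2ad (chr13:23666253-23666281, plus strand): aggtcctttTTCGCGCccagcgaataata
Hist1h2af (chr13:23625687-23625715, plus strand): tcactccgttTTCGCGCcagaagttgagt
Hist1h2an (chr13:21879151-21879179, minus strand): gtaggctctttTTCGCGCttggagaatcc
The H4 genes with a site in all 4 E2f3 libraries had another form of the motif, in forward or reverse orientation.
Hist2h4 (chr3:96067316-96067344, minus strand): atttagaaaggTTCCCGCccgcgcgcttt
Hist1h4f (chr13:23643597-23643625, minus strand): acagaatcaccTTCCCGCccgcgcctttt
Hist1h4d (chr13:23673330-23673358, plus strand): acgccagaaggGCGGGAAttgaccatggt
Hist1h4a (chr13:23853363-23853391, minus strand): gtgaagtcactTTCCCGCcggcgggcttt
Hist1h3g and Hist1h3b, and a high-scored site downstream of Hist1h2bn, had no E2F motif within 50 bp. Their capitals mark the word GCGCGGG, which was noticed after the sequences had been seen. On the opposite strand it was also present at the sites of Hist2h4 and Hist1h4f above. Within 300 bp upstream, 4 of 67 histone genes and 10.4% of all genes held it on either strand.
Hist1h3g (chr13:23627148-23627176, plus strand): actactGCGCGGGacacttgaaaagcaga
Hist1h3b (chr13:23844125-23844153, plus strand): atcccaacaaaGCGCGGGccctttgaatg
Downstream of Hist1h2bn (chr13:21846785-21846813, plus strand): tactgtgctGCGCGGGcaatttcaaattt

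E2f3 sites lay at 21 of 67 histone genes in control crypt, 31.3% (95% exact binomial interval 20.6% to 43.8%), against 14.6% of all protein-coding genes. Rb-deficient crypt had 24 of 67, or 35.8% (24.5% to 48.5%), against 20.2% of all genes. Control villus had 14 of 67, or 20.9% (11.9% to 32.6%), against 4.47%. Rb-deficient villus had 21 of 67, or 31.3% (20.6% to 43.8%), against 12.4%. In each of the 4 E2f3 libraries the interval lay above the share over all genes. The intervals are Clopper-Pearson intervals, cover counting error only, and treat genes as independent although neighbours can share 1 site. Of the 67 genes, 27 had an E2f3 site in at least 1 library, 13 in all 4 and 40 in none. The matching counts over all genes are not given here, so these 3 counts only describe the histone genes.

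**Figure D1:**
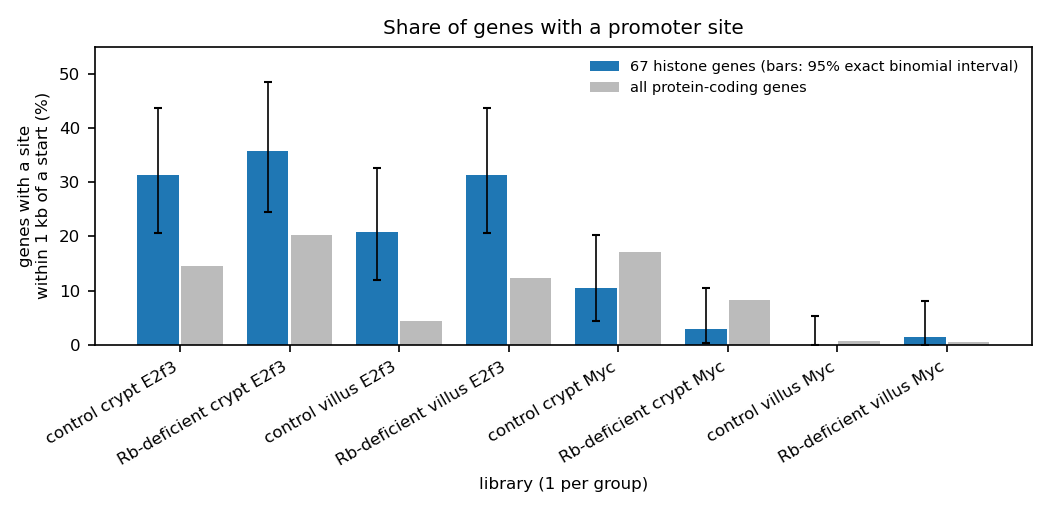
Percent of genes with a site within 1 kb of a start in each library, for the 67 histone genes (blue, with exact 95% binomial intervals) and for 22232 protein-coding genes (grey). The histone share was above the all-gene share in the 4 E2f3 libraries (for example 20.9% against 4.47% in control villus) and below it, within the interval, in both crypt Myc libraries.

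Over the 4 Myc libraries, 9 of 67 histone genes had a Myc site in at least 1, a count given without its match over all genes. Control crypt Myc, the longest list, had a site at 7 of 67 histone genes, 10.4% (4.3% to 20.3%), against 17.2% of all genes. Rb-deficient crypt Myc had 2 of 67, 2.99% (0.364% to 10.4%), against 8.28%. Control villus Myc had 0 of 67 against 0.738% of all genes, with an exact interval of 0% to 5.36%. By the rule of 3 counts, a count of 0 allows a share of up to 4.48%. Rb-deficient villus Myc had 1 of 67, 1.49% (0.0378% to 8.04%), against 0.423%. In each Myc library the all-gene share lay within the interval of the histone genes, so a difference from all genes was not detectable at these numbers.

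Among E2f3-bound genes, the median best score was higher for histone genes in each library, with genes that share a site each counted. The median best score was 134.7 over the 21 bound histone genes of control crypt, against 13 over all bound genes of that library. It was 200.9 against 12 in Rb-deficient crypt, 19.55 against 10.1 in control villus and 70.39 against 8.43 in Rb-deficient villus. Scores above the median of all bound genes were held by 17 of 21, 21 of 24, 9 of 14 and 20 of 21 bound histone genes. The cap of 999 was reached by 3 of 21, 7 of 24, 0 of 14 and 3 of 21 bound histone genes. Over all bound genes, 1.45%, 1.89%, 0.402% and 0.362% reached it. Best sites lay within 250 bp of the start at 17 of 21, 18 of 24, 11 of 14 and 17 of 21 histone genes, compared with 58.8%, 66.4%, 58% and 67.8% of all bound genes.

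**Figure D2:**
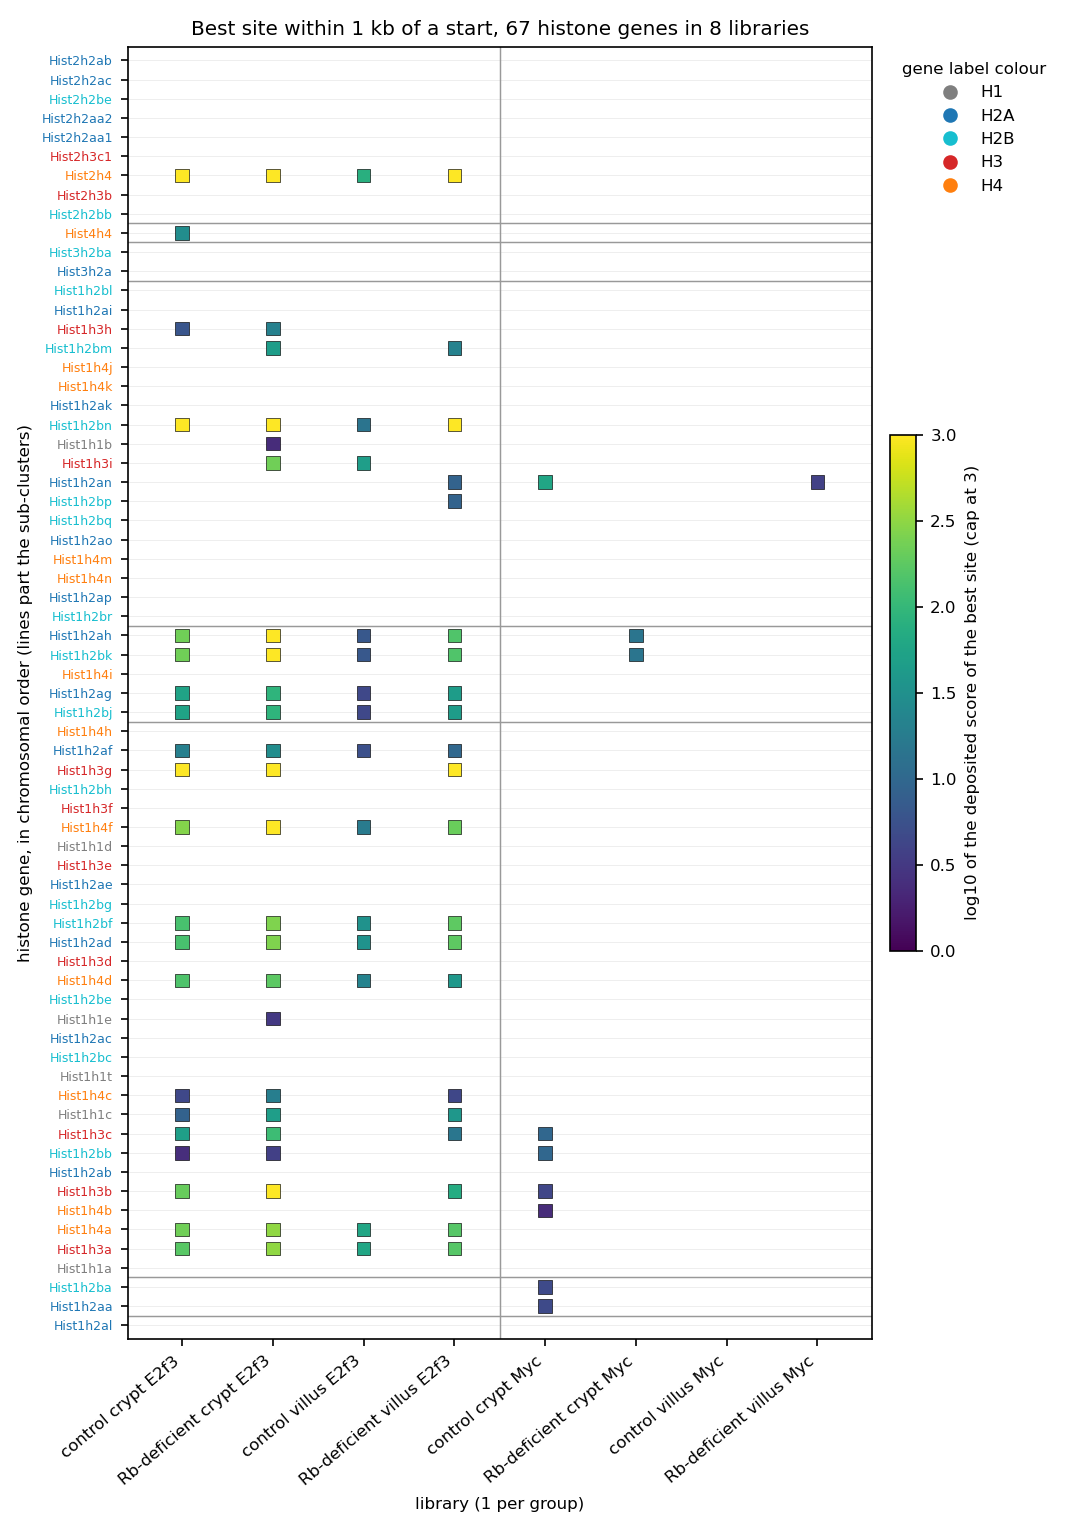
Log10 of the deposited score of the best site within 1 kb for each histone gene (rows, in chromosomal order, label colour by type) in each of the 8 libraries (columns). E2f3 sites of the same gene recur across columns, and the 2 genes on chromosome 11 (Hist3h2ba and Hist3h2a) have none.

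The sites at different genes were not all separate. Joined where they lay within 250 bp, the E2f3 sites of the 4 libraries formed 24 regions, of which 6 served more than 1 histone gene. Of the 24, 9 were found in all 4 libraries, 6 in 3, 4 in 2 and 5 in 1. All 6 regions of 3 libraries lacked a site in control villus, the shortest E2f3 list. Of the 19 regions found in at least 2 libraries, the best positions lay within 5 bp of each other in 13 and were identical in 5, with a median spread of 3 bp. The settings used to call the sites are not given. It is thus unknown whether sequence guided these positions, and their closeness was not read as independent agreement between libraries.

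H4, the core histone that pairs with H3, had E2f3 sites at 6, 5, 4 and 5 of 13 genes in the constant order. Hist2h4 (ENSMUSG00000091405.1) scored 999, 999, 78.67 and 999, 91 to 96 bp upstream of its start. It was the 1 gene of the 9 of Hist2 with an E2f3 site, and its site was at the cap in every E2f3 list but that of control villus. Hist1h4f scored 277.5, 999, 17.07 and 205.77, at the same base 94 bp upstream in all 4 lists. Hist1h4d scored 147.1, 175.78, 22.02 and 39.62, also at 1 base, 123 bp upstream. Hist1h4d shares this site with Gm17658, another protein-coding gene of the cluster. Hist1h4c, with no E2F motif within 50 bp, scored 4.48, 18.63 and 4.41 in control crypt, Rb-deficient crypt and Rb-deficient villus and had no site in control villus. Hist4h4, the histone gene on chromosome 6, had a single site, scored 28.49 in control crypt, 40 bp downstream of the annotated start within the coding sequence.

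The upstream regions of Hist2h4 and Hist1h4f show how the site lies relative to the H4 element GGTCCG, to which Hinfp binds. Each is 120 bases ending before the start, which is the annotated one for Hist2h4 and the RefSeq one for Hist1h4f, with the E2F motif in capitals.
Hist2h4 (chr3:96067235-96067354, minus strand): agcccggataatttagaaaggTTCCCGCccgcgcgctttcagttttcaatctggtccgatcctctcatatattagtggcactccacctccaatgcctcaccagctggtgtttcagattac
Hist1h4f (chr13:23643538-23643657, minus strand): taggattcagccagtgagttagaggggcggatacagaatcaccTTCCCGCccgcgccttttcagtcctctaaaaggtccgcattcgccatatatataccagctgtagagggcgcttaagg
In both, the element lay 31 bp downstream of the motif, counted between their first bases on the strand shown. The same spacing of 31 bp was found at Hist1h4j and Hist1h4k, which had no E2f3 site in any library, and 49 bp at Hist1h4d. Within 300 bp upstream, 11 of 13 H4 genes (84.6%) held GGTCCG on either strand, against 9.06% of all genes. CCAAT, a box common to many promoters, was found in 4 of 13 H4 genes (30.8%) and in 85.1% of the 67 histone genes, against 39% of all genes.

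Hist1h4a had a different layout, with 7 copies of TTCCCGC between 79 and 388 bp upstream of its start. The stretch shown holds the 5 copies nearest to the start, in capitals.
Hist1h4a (chr13:23853119-23853408, minus strand): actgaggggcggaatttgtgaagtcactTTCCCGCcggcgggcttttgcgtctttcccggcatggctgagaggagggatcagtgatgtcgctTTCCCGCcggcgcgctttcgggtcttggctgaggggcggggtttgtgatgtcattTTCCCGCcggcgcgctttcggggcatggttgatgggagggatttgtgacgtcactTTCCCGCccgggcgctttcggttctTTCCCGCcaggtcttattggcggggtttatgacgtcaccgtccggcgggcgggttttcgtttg
Neighbouring copies were 55 bp apart in 4 of 6 intervals, with 64 and 25 bp in the others. After the shift of positions by 1 base, itself set from the E2F motif, E2f3 sites fell at the centre of 5 of the 7 copies. Whether the program that called the sites used sequence to place them is not stated. Exact centring was therefore not read as a result. In control crypt the copies 278 and 79 bp upstream scored 165.68 and 221.98. In Rb-deficient crypt, 4 copies carried a site, at 388, 278, 159 and 79 bp upstream, with scores of 10.17, 314.85, 128.42 and 238.5. Control villus had sites at 159 and 79 bp (59.57 and 4.36), and Rb-deficient villus at 278 and 104 bp (163.24 and 156.77). The lists thus named different copies of 1 array, and no copy had a site in all 4. At least 5 E2F motifs within 300 bp upstream were found at 2 genes of all 22232, and Hist1h4a was the only histone gene among them. Hist1h3a, the H3 gene that lies next to Hist1h4a, counted as bound in all 4 libraries through these sites alone, 878 or 997 bp downstream of its start.

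**Figure D3:**
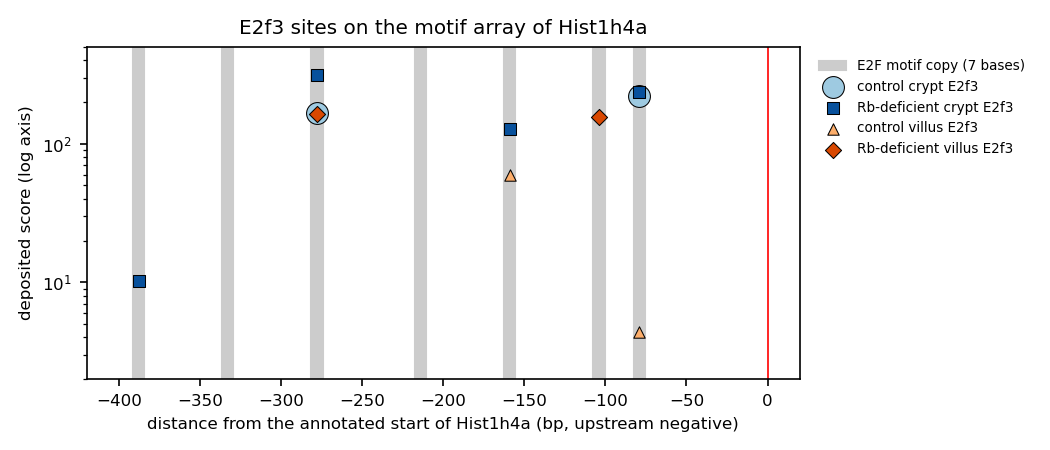
Deposited score (log axis) of every E2f3 site upstream of Hist1h4a against its distance from the annotated start, with the 7 copies of the E2F motif as grey bands. All sites fall on a band; the bands 333 and 214 bp upstream carry none.

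H2A and H2B genes mostly lie in divergent pairs, with starts facing away from each other across a short shared promoter. There were 13 divergent pairs of histone genes, 12 of them of H2A and H2B, with 168 to 306 bp between the starts (median 228.5). An E2f3 site lay between the starts or up to 50 bp beyond either of them in all 4 libraries at 3 of these 12 pairs, in 1 library at 1 pair and in none at 8. At Hist1h2ah and Hist1h2bk the site scored 221.47, 999, 6.52 and 151.14. At Hist1h2bf and Hist1h2ad the scores were 134.66, 264.76, 34.16 and 182.04. At Hist1h2ag and Hist1h2bj they were 55.23, 89.32, 4.45 and 44.58. The best positions of each pair lay within 5 bp across the 4 libraries, always beside the H2A gene: between 60 bp upstream and 20 bp downstream of the H2A start. The same site was 176 to 207 bp upstream of the H2B start where the H2B gene is considered.

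The shared promoter of Hist1h2ah and Hist1h2bk is shown from the H2B side to the H2A side, with the E2F motif in capitals near the H2A start and up to 25 bases beyond that start.
Hist1h2bk to Hist1h2ah (chr13:22127488-22127689, minus strand): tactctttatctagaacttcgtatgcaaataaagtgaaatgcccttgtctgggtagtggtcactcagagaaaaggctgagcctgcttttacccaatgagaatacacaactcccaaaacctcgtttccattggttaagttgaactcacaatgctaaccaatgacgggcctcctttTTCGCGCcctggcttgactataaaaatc
It held CCAAT on either strand 3 times. Near the H2B side lies atgcaaat, the octamer that Pou2f1 recognises, read on this strand. The octamer, searched as ATTTGCAT on both strands within 300 bp upstream, was found in 8 of 18 H2B genes (44.4%), 7 of 19 H2A genes (36.8%) and 1.82% of all genes. Of the 27 histone genes with an E2f3 site, 4 (14.8%) held it, compared with 11 of 40 (27.5%) without.

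Hist1h2af, an H2A gene with no divergent H2B partner, had a site in all 4 libraries with scores of 19.98, 28.77, 5.37 and 10.03, 74 to 75 bp upstream. Hist1h2an and Hist1h2bp shared 1 site, scored 8.89 in Rb-deficient villus only, although its motif was that of the other H2A genes. The 9-base word TTTTCGCGC, chosen after the sequences had been seen, was present within 300 bp upstream of 7 histone genes, 3 of H2A and 4 of H2B. All 7 had an E2f3 site, and 19 genes of all 22232 (0.0855%) held the word. The word was picked from bound sites, so this count is a description of them.

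Of the other H2B genes, Hist1h2bm had sites in the Rb-deficient libraries only, scored 45.35 in crypt and 20.71 in villus, 165 and 154 bp upstream. Hist1h2bb scored 2.47 and 3.72 in the crypt libraries, control first, and was unlisted in both villus libraries. The best site of Hist1h2bn scored 999, 999, 14.39 and 999. It lay 803 to 807 bp downstream of the start, past the end of this intronless gene, at the third of the sequences without a motif above. The same site was 1019 to 1023 bp upstream of the H2A gene Hist1h2ak, just beyond the window, so that Hist1h2ak counted as unbound. Other values at the edge of the window were Hist1h3a at 997 bp (59.57 in control villus), Hist1h1c at 970 bp (46.24 in Rb-deficient crypt) and, outside it, Hist1h1d at 1017 bp (9.33 in Rb-deficient crypt).

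H3, whose N-terminal tail carries many regulatory modifications, had E2f3 sites at 5, 6, 2 and 4 of 11 genes in the order used above. Hist1h3g scored 999 in control crypt, 999 in Rb-deficient crypt and 999 in Rb-deficient villus, 129 to 132 bp upstream, and had no site in control villus. A further site of Hist1h3g, 414 bp upstream at an E2F motif, scored 6.7, 17.42 and 4.46 in the same 3 libraries. Hist1h3b scored 200.57, 999 and 70.39 in these libraries, at 1 base 3 bp downstream of the annotated start and 75 bp upstream of the RefSeq start. Hist1h3c scored 48.64, 115.44 and 15.25, and its site also lay upstream of the RefSeq start, by 71 to 79 bp. All 3 genes thus had sites in both crypt libraries and Rb-deficient villus and none in control villus. Hist1h3h scored 6.2 and 20.15 in the crypt libraries and had no villus site.

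Hist1h3i departed from the other genes. It had a site in Rb-deficient crypt, scored 226.11, 473 bp upstream where overlapping matches to the E2F motif on both strands are in capitals.
Hist1h3i (chr13:21875725-21875753, minus strand): ttgaatttttTTCGCGCCAAaatcgcaac
In control villus its site scored 47.26 and lay 556 bp upstream, with no E2F motif within 50 bp. Neither control crypt nor Rb-deficient villus had a site within 1 kb, and the positions in the 2 lists were 83 bp apart.

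The linker histone H1, which binds the DNA between nucleosomes, had sites at 1, 3, 0 and 1 of 6 genes. Hist1h1c scored 8.46 in control crypt, 46.24 in Rb-deficient crypt and 38.36 in Rb-deficient villus, 959 to 970 bp downstream of the start. Hist1h1b and Hist1h1e had low-scored sites in Rb-deficient crypt only, 2.32 within the coding sequence and 3.12 upstream. Just outside the window, 1094 to 1098 bp downstream of the Hist1h1b start, a further site scored 6.86 in control crypt, 23.87 in Rb-deficient crypt and 13.27 in Rb-deficient villus. Within 2 kb, Hist1h1b therefore had a site in crypt of both genotypes and, in villus, of Rb-deficient cells only. No H1 gene held an E2F motif within 300 bp upstream, whereas 5 of 6 (83.3%) held the H1 box AAACACA, found in 7.14% of all genes.

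**Figure D4:**
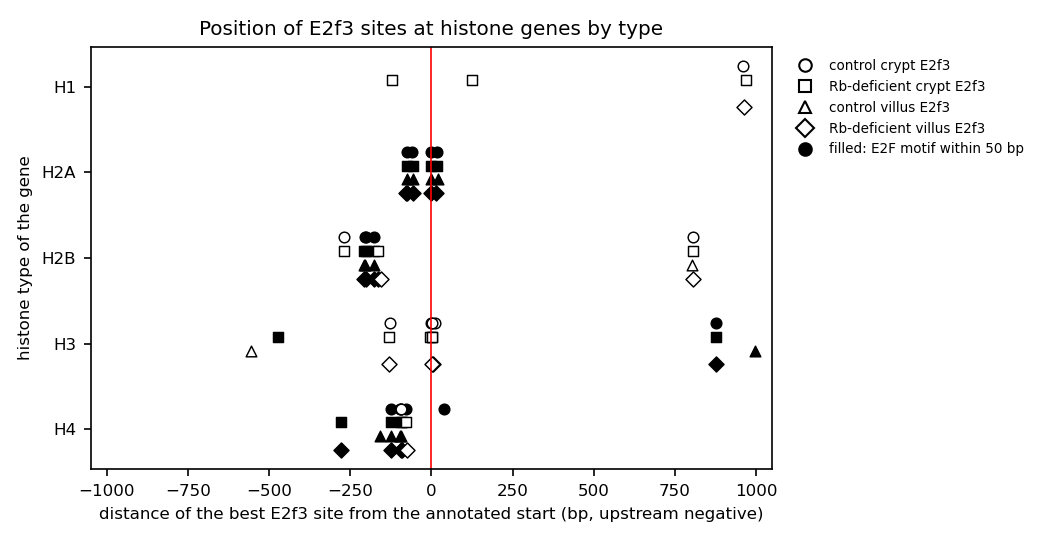
Distance in bp from the annotated start to the best E2f3 site of each histone gene, by histone type (rows) and library (marker shape); filled markers have an E2F motif within 50 bp. H2A sites sit around the start, H2B sites of the 3 shared promoters listed in all 4 libraries lie 176 to 207 bp upstream, and 1 of the H4 sites lies downstream of a start.

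Counting each distinct best site once, the E2F motif lay within 50 bp at 10 of 18 sites in control crypt, 55.6% (30.8% to 78.5%), against 39.7% of best sites of all genes. The values were 9 of 20 in Rb-deficient crypt, 45% (23.1% to 68.5%) against 33.8%, 8 of 10 in control villus, 80% (44.4% to 97.5%) against 60.5%, and 9 of 16 in Rb-deficient villus, 56.2% (29.9% to 80.2%) against 38.2%. Each all-gene share lay within the interval of the histone sites, so the shares were not distinguishable at these numbers. Of the 9 regions found in all 4 libraries, 8 had the motif, the exception being the site downstream of Hist1h2bn. A shorter part of the motif (CCCGC or CGCGC or GCCGC or GGCGC) lay within 10 bp of the site in 22 of the 24 regions. That part was also near 73.7% to 85% of the sites of all genes, depending on the E2f3 library.

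Over all histone genes, 20 of 67 (29.9%) held an E2F motif within 300 bp upstream, against 10.5% of all genes. By type these were 6 of 13 H4 genes (46.2%), 8 of 18 H2B (44.4%), 5 of 19 H2A (26.3%), 1 of 11 H3 (9.09%) and 0 of 6 H1. Of the 20, 12 had an E2f3 site and 8 did not. The 8 were Hist2h2aa1, Hist2h2aa2, Hist2h3c1, Hist1h2bq, Hist1h2br, Hist1h2bl, Hist1h4j and Hist1h4k. The H3 gene Hist2h3c1 and the H2A gene Hist2h2aa1 held the same motif, centred at chr3:96049292, so it was counted for both. Hist2h3c1 has 1197 untranslated bases after its annotated start, and its RefSeq start lies downstream of that start, at chr3:96050608. The H3 count therefore rests on the annotated start of this gene.

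Histone genes arose by duplication, and reads from identical copies cannot be placed uniquely. How the authors treated such reads is not given in the sources used here. Upstream sequence was therefore scanned for words of 32 bases that occur more than once in the genome. In 9 of 67 genes (13.4%, against 7.09% of all genes) at least 50% of the words within 300 bp upstream were repeated. These were Hist1h2ao, Hist1h2ap, Hist1h2bq, Hist1h2br, Hist1h4m and Hist1h4n, each at 100%, Hist2h3c1 at 75.5%, and Hist2h2aa1 and Hist2h2aa2 at 73.2%. None of the 9 had a site in any of the 8 libraries, while the other 58 comprised all 27 genes with an E2f3 site and 31 without. The share of bound genes among all genes with so many repeated words is not given here. The upstream sequences of Hist2h2aa1 and Hist2h3c1 overlap, so the 9 are not all separate observations. In 5 of the 8 genes with an unbound motif, every word over the motif was repeated. At Hist1h2bl, Hist1h4j and Hist1h4k no word over the motif was repeated. No E2f3 site at a histone gene was covered by a repeated word. Whether sites at the 9 genes went uncalled for this reason was not tested.

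**Figure D5:**
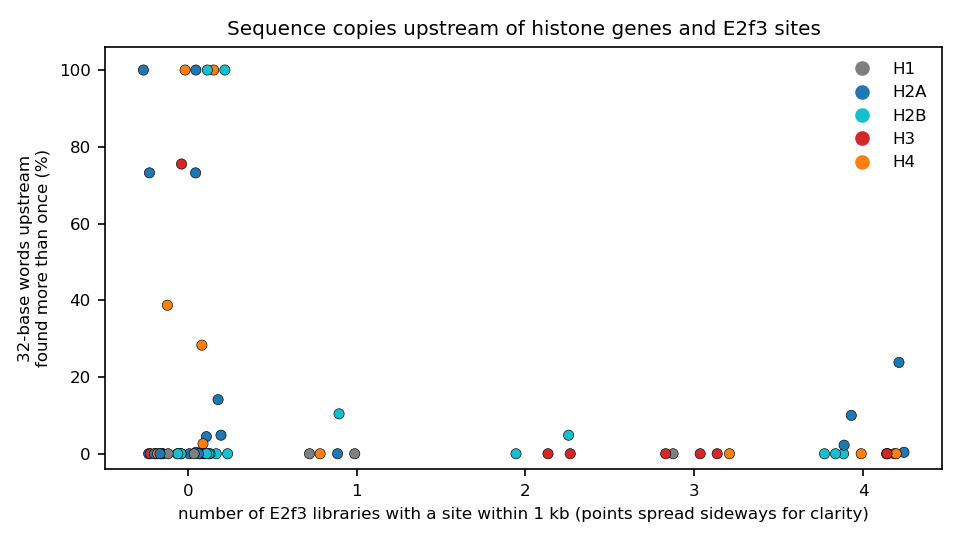
Percent of 32-base words within 300 bp upstream that occur more than once in mm9, against the number of E2f3 libraries with a site, for each histone gene (colour by type). The 9 genes at or above 50% all lie at 0 libraries, where 31 other genes lie too.

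Along chromosome 13 the bound genes were counted by group, with genes that share a site each counted. The group chr13:22126982-22135545, with 5 genes over 8.56 kb, had E2f3 sites in all 4 libraries at 4 of them, the exception being Hist1h4i. These 4 genes form divergent pairs that share their sites, and each E2f3 list held 2 sites in this group. The group chr13:23622919-23856283, with 29 genes over 233 kb, had 14 with an E2f3 site and 7 with one in all 4 libraries. The group chr13:21807632-21929399, with 18 genes over 122 kb, had 7 and 1, and it holds the 6 genes at 100% repeated words. Hist1h2ba and Hist1h2aa, which lie apart at chr13:24025637-24026720, had no E2f3 site, and neither did Hist1h2al, alone at chr13:51298057-51298434.

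The question of the series, binding in normal and Rb-deficient cells, was addressed by pairing the libraries of a cell type. In villus, 13 histone genes had an E2f3 site in both genotypes, 8 in the Rb-deficient library only and 1 in the control library only. Over all genes, 8.67% had a site in the Rb-deficient villus library only and 0.729% in the control villus library only. The 8 were Hist1h2bm, Hist1h2an, Hist1h2bp, Hist1h3g, Hist1h4c, Hist1h1c, Hist1h3c and Hist1h3b, with scores from 4.41 (Hist1h4c) to 999 (Hist1h3g), and the 1 was Hist1h3i. Of the 22 histone genes with a villus site in either genotype, 36.4% were in the Rb-deficient library only, compared with 66% of 2922 genes overall. With both lists cut to the length of the shorter, 7 and 1 genes were found in 1 genotype only. The Rb-deficient list was the longer of the pair, with 14843 against 7405 sites.

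In crypt, 20 histone genes had an E2f3 site in both genotypes, 4 in the Rb-deficient library only and 1 in the control library only. Over all genes, 8.23% were listed for Rb-deficient crypt alone and 2.6% for control crypt alone. The 4 were Hist1h2bm, Hist1h1b, Hist1h3i and Hist1h1e, and the 1 was Hist4h4. Of the 25 genes bound in either crypt library, 16% were in the Rb-deficient list only, compared with 36.1% of 5070 genes overall. Hist1h2bm was thus found in Rb-deficient libraries of both cell types and in neither control library. How many of all genes had this pattern is not given here, so it only describes this gene. With 1 library per group, none of these differences has a replicate check.

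The Myc sites were few and mostly low-scored. In Rb-deficient crypt, Hist1h2ah and Hist1h2bk shared a Myc site scored 14.81, with the E-box CACGTG within 50 bp. The site lay 595 bp downstream of the Hist1h2ah start and 773 bp upstream of that of Hist1h2bk. In control crypt, Hist1h2an scored 59.39, 840 bp downstream of the start, and its Rb-deficient villus Myc site scored 3.83 at 837 bp. At Hist1h3b the control crypt Myc site, scored 4.24, lay 11 bp upstream of the start, near the E2f3 site 3 bp downstream. The other control crypt Myc sites scored from 2.37 (Hist1h4b) to 9.88 (shared by Hist1h3c and Hist1h2bb). None of the 5 distinct control crypt sites had an E-box within 50 bp (interval 0% to 52.2%). For best Myc sites of all genes, the E-box share was 4.15% of 3640 in control crypt. It was 30.6% of 1684 for the Rb-deficient crypt library. With so few histone sites, no difference from all genes could be detected. No histone gene held an E-box within 300 bp upstream, against 7.4% of all genes.

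Genes that act on histone gene expression and on the 3′ ends of histone mRNA were read in the same way, from a list of which 21 of 22 symbols were found. E2f3 sites were present at 12, 15, 7 and 12 of the 21 in the 4 E2f3 libraries, where 14.6%, 20.2%, 4.47% and 12.4% of all genes had one. The list was chosen with earlier results of these data known, so its counts only describe the listed genes. Myc sites were present at 6 and 5 in the crypt libraries, where 17.2% and 8.28% of all genes had one, and at 0 in both villus libraries. Hinfp, the activator of H4 genes, scored 229.83, 999, 9.52 and 152.93 with E2f3. Slbp, which binds the stem-loop of histone mRNA, scored 95.48, 193.7, 13.08 and 19.08. Casp8ap2, a component of histone mRNA processing, scored 61.06, 220.61, 27.75 and 50.52. Ccne1, cyclin E1, scored 31, 170.44, 4.13 and 36.55. Npat, the coactivator, scored 31.06 in control crypt, 30.46 in Rb-deficient crypt and 3.71 in control villus, and was unlisted in Rb-deficient villus. Ccne2, cyclin E2, scored 13.65, 22.71, 2.68 and 22.62. Hinfp, Slbp, Casp8ap2, Ccne1 and Ccne2 were the 5 genes of the list with an E2f3 site in all 4 libraries. Lsm10, Sympk, Srrt, Coil and Ncbp2 had none in any.

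Histone variant genes, which are expressed outside S phase as well, were found for 10 of 12 symbols, with E2f3 sites at 5, 6, 1 and 5, against the same shares of all genes as above. H2afv scored 999, 999, 161.82 and 226.97 and was the variant gene with a site in control villus. H2afx, the variant phosphorylated at DNA breaks, scored 262.19 in control crypt, 999 in Rb-deficient crypt and 92.62 in Rb-deficient villus. Testis histones outside the clusters had no E2f3 site at any of the 4 genes found of 6 listed, and 1 had a control crypt Myc site.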

How the data were processed

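Binding sites from 8 ChIP-exo-seq libraries were used as deposited. Each list gives positions with a score per site, deposited by the authors, whose unit and normalization are not stated. Bowtie2 2.2.1, MACS2 2.0.10 and the build mm9 are named in the submitters' processing notes. File names mention GEM events overlapping MACS2 peaks, merged data and kept duplicates, and the sources used here do not say what was merged, which settings were used or how deep the libraries were. Positions were shifted by 1 base, on the inference that they count from 0. The inference came from E2F motifs within 50 bp of E2f3 sites. In each E2f3 list the median offset of the motif centre from the deposited position was 1 base on both strands. Genes and sequence came from GENCODE M1 and NCBIM37, with RefSeq starts (GRCm38.p6 promoter table) matched by sequence for 61 of 67 genes. Among these, 34 lay within 5 bases of the annotated start and 14 over 20 bases upstream. Groups were taken from the labels, and with 1 library per group no test was made. The genes named are those with sites in all 4 E2f3 libraries, the 5 highest-scored of each E2f3 library and of Rb-deficient crypt Myc, those with a site in 1 genotype of a pair only in villus or in control crypt only, and those with an Rb-deficient crypt Myc site. Others are named as examples chosen after their values were seen. Members and lists were chosen with earlier results of these data known. Python 3.11.15, pandas 2.3.3, SciPy 1.17.1 and pysam 0.24.0 were used, and the assignment of best sites was tested on simulated data. Alternatives were the window, score threshold, list length, start sites, nearest gene, motif window and sharing distance.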

Additional observations from a re-analysis of the deposited data

Results flagged for a closer look

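Hist1h3i, an H3 gene, had an E2f3 site within 1 kb in Rb-deficient crypt, with a score of 226.11, and none in control crypt. In villus the order was the opposite, with a site scored 47.26 in control and none in Rb-deficient cells. The genotype contrast thus pointed in opposite directions in the 2 cell types. The difference was not tested, since each group had 1 library. The positions were 83 bp apart, and the E2F motif lay beside the crypt site only.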

How the results depend on the processing

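Of 107 values recomputed under alternatives, 87 stayed within 1.5 times the reported count or within the reported interval, and 20 moved. Control villus E2f3 fell from 14 to 9 genes with sites at or above the median score, with equal list length (4119 sites) and with the nearest gene only. Control crypt Myc went from 7 genes to 3 within 500 bp, 15 within 2 kb, 1 at the median score and 0 at equal length. Rb-deficient crypt Myc went from 2 to 0 within 500 bp, 0 at equal length and 1 with the nearest gene only. Rb-deficient villus Myc went from 1 to 0 within 500 bp, 2 within 2 kb and 0 at the median score. The villus control-only gene, Hist1h3i, was lost within 500 bp (0). The share of sites with an E2F motif rose in control crypt from 55.6% to 83.3% within 250 bp and 94.4% for the 3′ part of the motif, in Rb-deficient crypt from 45% to 80% and 95%, and in Rb-deficient villus from 56.2% to 87.5% and 100%. The cause of these moves was not tested, except that a wider window or shorter word holds more matches and a shorter list fewer sites. RefSeq starts, added after seeing the data, moved none of 12 counts. Each matched gene was given the RefSeq start nearest to its annotated start, and unmatched genes kept the annotated one. That choice left little room for a count to move. No paired analysis was possible because each group had 1 library, and for the same reason no library could be left out. Depth is unknown, so sites missing from a list were not shown to be absent.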

Other observations

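Within the groups of histone genes on chromosome 13, some E2f3 sites lay over 1 kb from every annotated histone start. A site near chr13:23678588, 5121 bp from the start of Hist1h4d, had E2f3 scores of 111.03 and 152.4 in crypt and of 35.15 and 48.88 in villus, with control before Rb-deficient cells. This site lies within the annotated span of Hist1h2be (chr13:23675611-23712993), whose annotated start is 35168 bases before its coding sequence. Judged by that start, Hist1h2be counted as unbound and is among the 40 genes without an E2f3 site. A start close to its coding sequence was not tried, so its place among these genes rests on the annotated start. A site near chr13:23818536, 12140 bp from Hist1h1c, was listed in all 8 libraries. Its E2f3 scores were 66.13, 42.98, 23.88 and 33.43 and its Myc scores 306.46, 43.42, 15.92 and 8.58. A neighbouring site near chr13:23823611 scored 58.27, 25.66, 8.37 and 14.24 with E2f3 and 304.44, 34.15 and 9.79 with Myc in control crypt, Rb-deficient crypt and control villus. Within the largest group, 16 control crypt Myc sites were listed, 3 of them within 1 kb of a histone start. The corresponding E2f3 counts in control crypt were 20 and 13.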
